A study of Mus musculus with 6 samples.

Results

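The PPAR, ERR and PGC-1 regulators of oxidative metabolism were examined in iWAT, the inguinal white fat under the skin, in which beige adipocytes appear in the cold. They are the 10 genes Ppargc1a, Ppargc1b, Nrip1, Ppara, Ppard, Pparg, Esrra, Esrrg, Nrf1 and Gabpa, which were found by symbol among the 16538 genes of the RNA-Seq table. Control mice carried floxed Nrg4 alleles (fl/fl, labelled wt), and AKO mice carried the same alleles and lacked NRG4, a secreted EGF-like ligand, in adipocytes through an Adiponectin-Cre driver, which acts in brown and white adipocytes alike and not in iWAT alone. All mice, controls included, were held at 8°C, for 10 days by the sample labels and somewhat longer by the text of the study. There were 3 samples per group, and each held RNA pooled from 2 mice, so that p-values measure the spread between pools. The age of these mice was not given in the sources used here. The question was whether any of these regulators moved with Ucp1 and the oxidation genes.

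Brown and beige adipocytes burn fatty acids in mitochondria that are uncoupled by UCP1. In the textbook scheme, cold acts through β-adrenergic receptors and cAMP to induce Ppargc1a, whose product PGC-1α is a coactivator that binds no DNA itself. PGC-1α and its relative PGC-1β work through partners that do bind DNA, among them the peroxisome proliferator-activated receptors (PPARs), the estrogen-related receptors (ERRs) and the nuclear respiratory factors NRF1 and GABPA. RIP140, the product of Nrip1, is a corepressor that acts against the same receptors.

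The proximal promoters of 4 of these genes are shown because a motif tied to this network lies in each. Windows from 250 bases before to 50 bases after the transcription start were taken from RefSeq (GRCm38.p6) and were held for 9 of the 10 genes, Ppargc1b being the exception. They were searched on both strands for the ERR element TCAAGGTCA, the nuclear receptor core site AGGTCA that the ERR element contains, the NRF1 element GCATGCGC, the GABPA element CCGGAAG, the cAMP response element TGACGTCA and its core TGACG. The last 120 bases before the start follow, with the match in capitals, for Ppara (chr15:85735656-85735775, plus strand), Esrra (chr19:6921809-6921928, minus strand), Gabpa (chr16:84835004-84835123, plus strand) and Ppargc1a (chr5:51567726-51567845, minus strand).
Ppara: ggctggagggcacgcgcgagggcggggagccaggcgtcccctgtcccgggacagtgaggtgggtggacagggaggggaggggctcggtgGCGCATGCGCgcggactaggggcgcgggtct
Esrra: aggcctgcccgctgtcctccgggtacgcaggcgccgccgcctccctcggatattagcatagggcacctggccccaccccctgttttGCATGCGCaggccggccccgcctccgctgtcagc
Gabpa: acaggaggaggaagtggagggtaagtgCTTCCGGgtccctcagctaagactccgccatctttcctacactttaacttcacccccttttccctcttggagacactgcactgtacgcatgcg
Ppargc1a: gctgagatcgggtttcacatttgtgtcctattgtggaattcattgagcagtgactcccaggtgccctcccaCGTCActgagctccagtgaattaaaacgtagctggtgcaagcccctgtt

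The capitals in Ppara and Esrra are the NRF1 element, which overlaps itself on opposite strands in Ppara and starts 34 bases before the start of Esrra. This element was in 3.05% of the 27025 genes with a window and in these 2 regulators. The capitals in Gabpa are the GABPA element (93 bases before the start, in 9.93% of genes), and those in Ppargc1a are the cAMP core TGACG (49 bases before the start, in 23% of genes). This core was also in Ppara and Ppard, and AGGTCA (18.1% of genes) was in Pparg. The ERR element, in 0.466% of genes, was in none of the 9 windows. A match is a run of letters and not a measured binding site.

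The 6 samples were of similar depth (17570335 to 18373707 recovered reads). The tissue label was checked against adipocyte markers, all 12 of which were present. They summed to 695597 to 718154 normalized counts in control samples and 573552 to 663542 in AKO samples, so that the groups did not overlap (exact permutation test, p = 0.1). Gene by gene, 3 of the 12 were lower without overlap, beside 8.31% of all genes tested, and 2 had a log2 fold change above 0. Skeletal muscle markers (27 of 28 in the table, none at 0 in all samples) summed to 893, 35254 and 19704 normalized counts in control samples 1, 2 and 3 and to 26262, 100951 and 148939 in AKO samples 1, 2 and 3. The muscle gene Acta1, which encodes skeletal muscle actin, ranged from 62.2 in control 1 to 27039 in AKO 3. Lymphocyte markers (8 of 8) summed to 1022, 192 and 158 in control samples 1, 2 and 3 and to 196, 1407 and 131 in AKO samples 1, 2 and 3. Macrophage markers (12 of 12) summed to 12319 to 17527 in control and 15239 to 20916 in AKO samples. All 12 had a log2 fold change above 0 (median 0.37), as had 7193 of the 13855 genes tested. Progenitor and fibroblast markers (8 of 8) summed to 65504 to 93394 in control and 77541 to 105014 in AKO samples. All 8 had a log2 fold change above 0 (median 0.27), Pdgfra and Dpp4 were higher in AKO without overlap, and DESeq2 called Dpp4 (adjusted p = 0.00917). In bulk tissue, fewer cells of a type and less RNA per cell cannot be told apart.

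None of the 10 regulators passed the threshold with limma on log2(normalized count + 1), at an adjusted p under 0.05 over 13855 genes. Over all genes 0.0144% were called in this way. Esrrg, Ppara and Esrra had the lowest values in AKO relative to control and were the 3 regulators with an unadjusted p under 0.05. At that limit 4.69% of all genes tested were lower. The 3 AKO samples all lay below the 3 controls for 3 of 10 regulators (Esrra, Esrrg and Gabpa) and above for 1 (Nrf1), beside 8.31% and 6.14% of all genes tested. The median log2 fold change was -0.22 over the regulators and 0.01 over all genes tested. It depended on single libraries and on the muscle term, at -0.08 without control 1, -0.14 without control 2 and -0.32 without control 3. Without AKO 1 it was -0.145, with the muscle markers as a covariate -0.06 and with limma-voom -0.14. The mean log2 value of the muscle markers was 3.58 in control 1 and 8.40 to 10.9 in the other samples. The covariate and the removal of control 1 are therefore not separate checks, here and for the single genes below. DESeq2 on the recovered reads also called 0 of the 10, while it called 0.629% of all genes as lower and 0.21% as higher. Its count for the regulators became 1, Ppara, when its filtering of weak genes was set for a threshold of 0.05 (an alternative added after the data were seen).

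**Figure D1:**
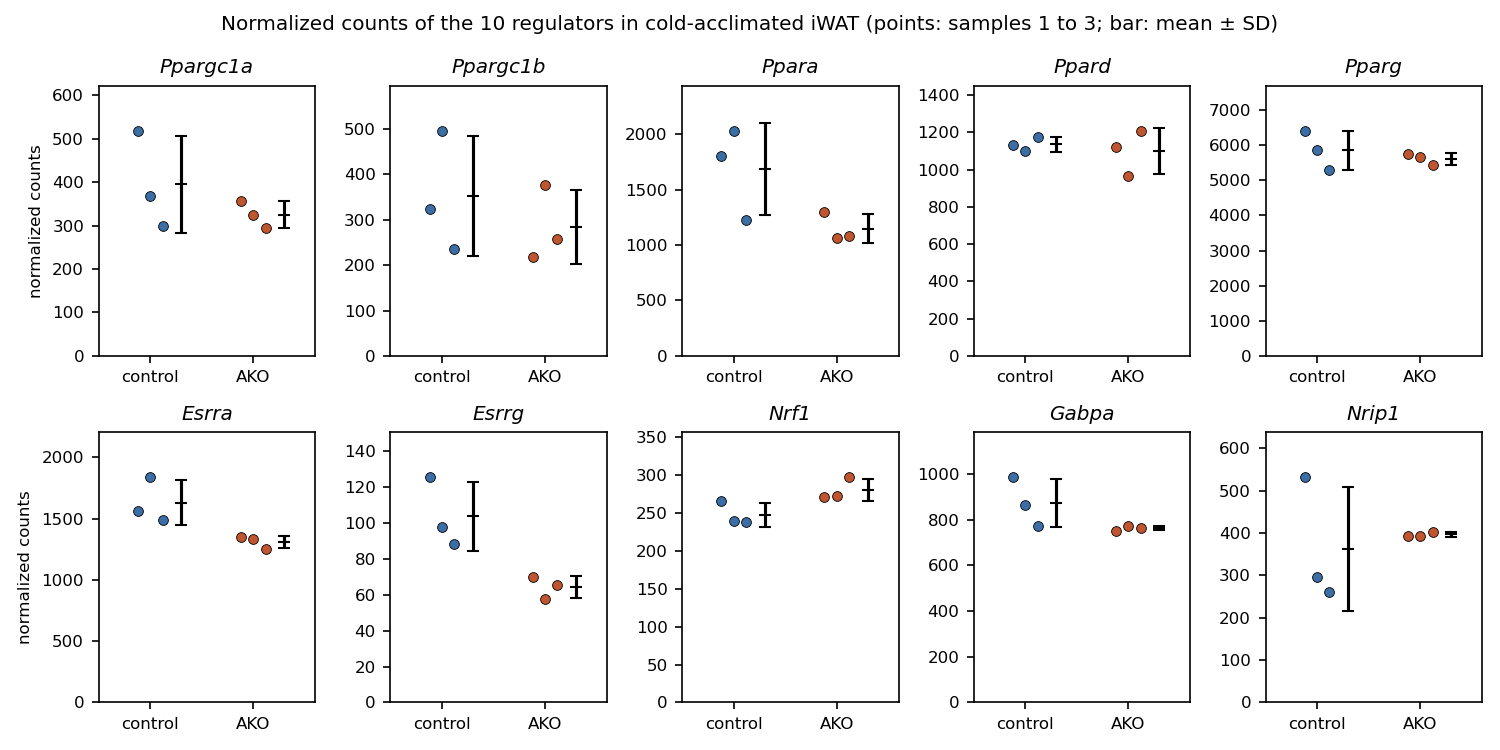
Normalized counts (vertical axes, from 0) of each regulator in 3 control (blue) and 3 AKO (orange) samples, with the mean and SD as a black bar. The groups are separate for Esrra, Esrrg and Gabpa (AKO lower) and for Nrf1 (AKO higher), and overlap for the other 6 genes.

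Ppargc1a (chromosome 5, 51454250 to 51567726, minus strand), the cold-inducible coactivator gene, had 518, 368 and 300 normalized counts in control samples 1 to 3 and 356, 325 and 295 in AKO samples 1 to 3. Control 1 stood above the other 5 samples, which lay close together, and the groups overlapped. The means were 395 ± 112 (SD, n = 3) and 325 ± 30.6 (SD, n = 3), a log2 fold change of -0.25 (standard error, SE, 0.19, limma adjusted p = 0.754). Control 1 was also the sample with the lowest muscle markers. Without control 1 the log2 fold change was -0.03, and without control 3 it was -0.43. With the muscle markers as a covariate it was 0.07. Within the control samples the levels of Ppargc1a were ordered 1, 2, 3 and those of Ucp1 were ordered 2, 1, 3.

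Ppargc1b, which encodes the related coactivator PGC-1β, had 323, 496 and 236 normalized counts in control and 219, 376 and 257 in AKO samples. The second sample was the highest in both groups, and the ranges overlapped widely. The log2 fold change of -0.28 was no larger than its standard error of 0.28 (adjusted p = 0.830 from limma). Without control 2 the difference was 0.00 and without AKO 1 it was -0.11, while it was -0.50 without AKO 2 and -0.53 without control 3. Its size thus depended on several single libraries.

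Nrip1 (chromosome 16, 76287400 to 76373827, minus strand), the corepressor gene, had 531, 297 and 260 normalized counts in control and 394, 393 and 403 in AKO samples. The AKO samples lay within the range of the controls and differed from each other by less than counting error (SD 5.43, counting error 20.3), so that this SD understates the error. The log2 fold change was 0.20 (SE 0.23, limma adjusted p = 0.853). Control 1, the sample with the lowest muscle markers and the control with the highest lymphocyte markers, again stood highest. Without that sample the log2 fold change was 0.51 and DESeq2 called Nrip1 as higher, and without control 3 it was -0.00. The part of muscle RNA in the values of Ppargc1a and Nrip1 was tested only through the covariate. This covariate mostly sets control 1 apart, so that it cannot tell muscle RNA from other traits of that library. With it Nrip1 had a log2 fold change of 0.62 (adjusted p = 0.245 from limma).

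**Figure D2:**
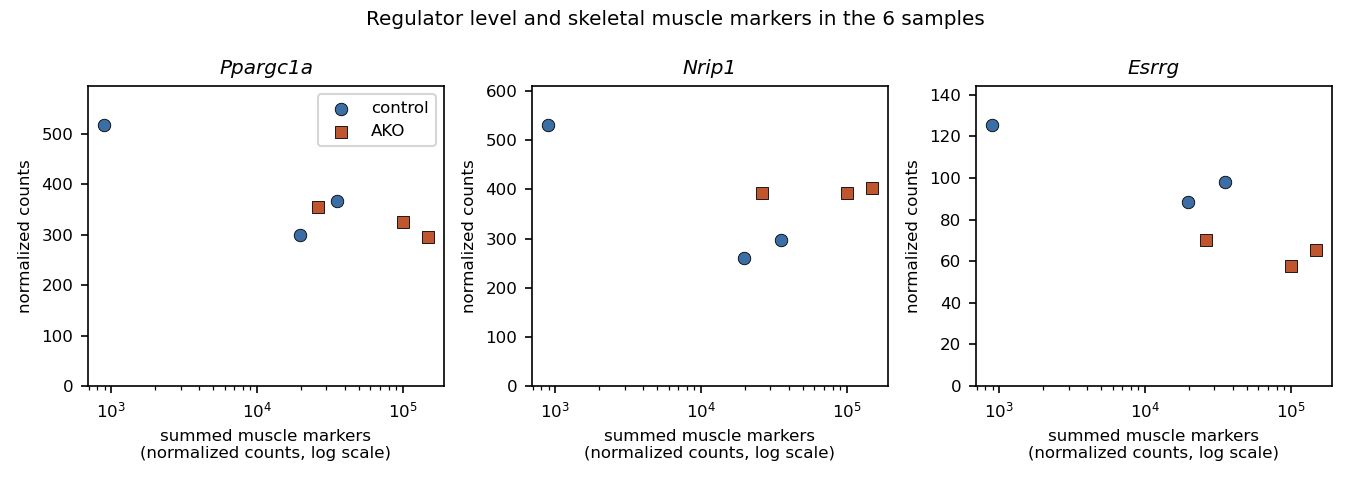
Normalized counts of Ppargc1a, Nrip1 and Esrrg (vertical axes) against summed skeletal muscle markers (horizontal axes, log scale) in 3 control (circles) and 3 AKO (squares) samples. The control sample at 893 summed marker counts is the highest of all 6 for each of the 3 genes.

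Of the PPARs, which bind fatty acids and pair with RXR on DNA, Ppara had the largest difference between groups. Ppara (chromosome 15, 85734983 to 85802819, plus strand), whose product drives fatty acid oxidation genes, had 1801, 2029 and 1228 normalized counts in control and 1297, 1064 and 1083 in AKO samples. Control 3 was low and lay below AKO 1, so that the groups overlapped by that single pair (exact permutation test, p = 0.2). The means were 1686 ± 413 (SD, n = 3) and 1148 ± 130 (SD, n = 3), which is 31.9% lower in AKO and gives a log2 fold change of -0.53 (SE 0.18, limma adjusted p = 0.484). DESeq2 gave an adjusted p of 0.0514 with its default filtering and 0.0474 with the filtering set for 0.05. Leaving out single samples moved the limma log2 fold change between -0.74 and -0.38, and DESeq2 called Ppara without control 3. Ppara was one of the regulators whose difference remained below 0 in each of the 26 alternatives, as were Esrra, Esrrg and Gabpa.

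Ppard (chromosome 17, 28232700 to 28301474, plus strand), the broadly expressed PPAR gene, had 1134, 1098 and 1176 normalized counts in control and 1122, 965 and 1208 in AKO samples. Pparg (chromosome 6, 115360951 to 115490399, plus strand), the gene of the receptor that directs adipocyte differentiation, had 6406, 5869 and 5302 in control and 5738, 5657 and 5433 in AKO samples. Both genes overlapped between groups, with log2 fold changes of -0.05 (SE 0.09) and -0.06 (SE 0.08) and limma adjusted p-values of 0.908 and 0.880. The sign was not stable, since Ppard stood at 0.00 when scaled by total reads and Pparg at 0.03 with the muscle covariate.

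Esrra and Esrrg, the ERR genes among the regulators, were lower in every AKO sample, while Esrrb, below the limit of 10 for testing, overlapped between groups. Esrra (chromosome 19, 6910977 to 6921813, minus strand) encodes ERRα, a receptor tied to genes of the TCA cycle and respiratory chain. It had 1566, 1837 and 1491 normalized counts in control and 1347, 1334 and 1255 in AKO samples. The means were 1632 ± 182 (SD, n = 3) and 1312 ± 49.7 (SD, n = 3), 19.6% lower in AKO. The log2 fold change was -0.31 (SE 0.09, limma unadjusted p = 0.00747 and adjusted p = 0.387), and the exact permutation test gave its smallest p, 0.1. The difference was between -0.37 and -0.22 with each sample left out and was -0.36 with the muscle covariate. The exons of Esrra share 2.07% of their bases with the microRNA gene Mir6990 on the same strand.

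Esrrg (chromosome 1, 187608791 to 188214885, plus strand), the gene of ERRγ, a receptor of highly oxidative tissues, had the lowest counts of the 10 genes. The control samples had 125, 97.9 and 88.4 normalized counts and the AKO samples 70.1, 57.6 and 65.6. The means of 104 ± 19.2 (SD, n = 3) and 64.4 ± 6.33 (SD, n = 3) differed by 38.0%, the largest relative difference among the regulators. The log2 fold change was -0.67 (SE 0.17, limma unadjusted p = 0.00461 and adjusted p = 0.351), and DESeq2 gave an adjusted p of 0.322. Muscle also expresses Esrrg. Control 1, the sample lowest in muscle markers, was the highest for Esrrg, and without it the log2 fold change was -0.53. With the muscle covariate the log2 fold change was -0.46.

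Nrf1 and Gabpa encode DNA-binding factors for nuclear genes of the respiratory chain and of mitochondrial DNA maintenance, and their small differences had opposite signs. Nrf1 (chromosome 6, 30047988 to 30153458, plus strand) had 266, 240 and 238 normalized counts in control and 271, 272 and 297 in AKO samples. The AKO samples were all higher, AKO 1 (271) lying just over control 1 (266), and the log2 fold change was 0.18 (SE 0.09, limma adjusted p = 0.608). Gabpa (chromosome 16, 84834925 to 84863779, plus strand) had 985, 865 and 773 normalized counts in control and 753, 771 and 764 in AKO samples. The AKO samples were all lower, AKO 2 (771) lying just under control 3 (773), with a log2 fold change of -0.19 (SE 0.09, limma adjusted p = 0.589). The SD of Gabpa in AKO samples (9.24) was below its counting error (28.1), and 6.98% of its exonic bases are shared with Atp5j on the opposite strand. Control 1, with the lowest muscle markers, was the highest sample, and the difference of Gabpa was -0.10 without it and -0.08 with the muscle covariate.

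**Figure D3:**
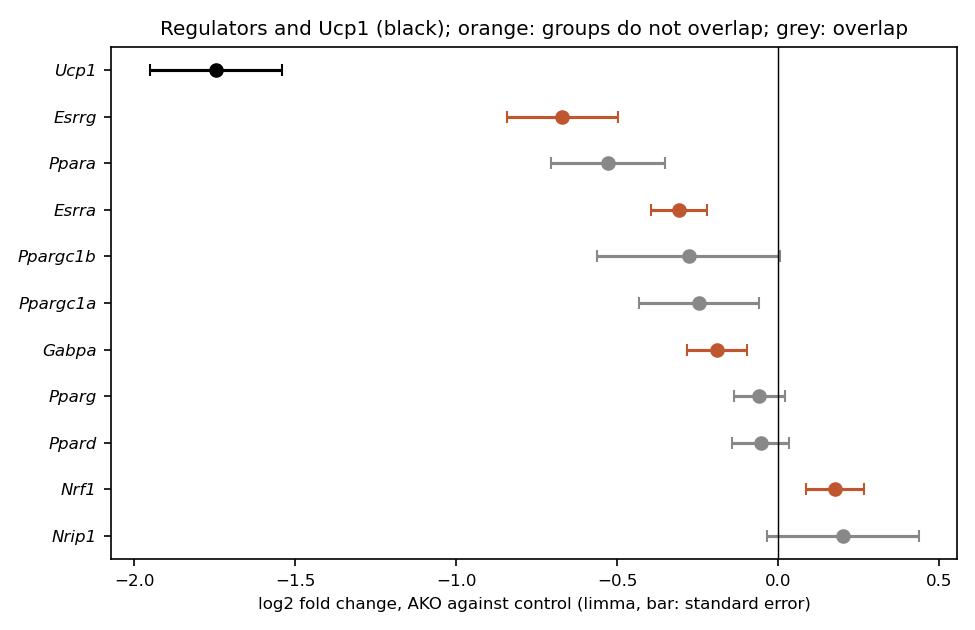
Log2 fold change of AKO against control (horizontal axis, limma, n = 3 samples per group) with its standard error for the 10 regulators and Ucp1. The regulators range from -0.67 (Esrrg) to 0.20 (Nrip1), and Ucp1 lies at -1.75.

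Per kilobase of exon, over the 6 samples, the regulators spanned a wide range of levels. Pparg was highest at 1942 normalized counts per kilobase, and its samples did not overlap those of the next gene. Ppara (369) and Esrra (335) followed with overlapping ranges, and then Ppard (149) and Gabpa (144), which also overlapped. Ppargc1b (79.7), Ppargc1a (54.7), Nrip1 (33.1) and Nrf1 (25.7) each overlapped their neighbour. Esrrg was lowest at 13.6, apart from Nrf1. Ucp1 stood at 7978 on the same scale.

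No regulator moved by as much as Ucp1, the uncoupling protein gene, which had a log2 fold change of -1.75 (SE 0.21, limma adjusted p = 0.0703). DESeq2 called Ucp1 as lower in AKO, with an adjusted p of 2.14e-06. Relative to the control mean, Ucp1 was at -0.13, 0.36 and -0.23 in control and at -1.87, -2.03 and -1.34 in AKO samples on the log2 scale. The log2 difference of each regulator from Ucp1 within a sample was higher in all 3 AKO samples than in any control for 10 of 10 regulators, by 1.08 for Esrrg to 1.95 for Nrip1 (exact permutation test, p = 0.1 each, adjusted p = 0.1, the smallest that 3 samples against 3 allow). The same held for 97.9% of the other genes tested, so that this count reflects the size of the Ucp1 difference and is not particular to the regulators. As a description, the distance from Ucp1 (root mean square of the log2 differences over the 6 samples, each gene centred on its control mean) was smallest for Esrrg (0.823), then Ppara (0.906) and Esrra (1.05). Ppargc1a stood at 1.13.

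The oxidation genes were followed by the mean log2 value of 52 genes, 27 of fatty acid oxidation and 25 of the TCA cycle and pyruvate entry, none of them a regulator. This score was at -0.09, 0.17 and -0.08 in control and at -0.35, -0.28 and -0.30 in AKO samples relative to the control mean. Esrra was at -0.05, 0.18 and -0.12 in control and at -0.27, -0.28 and -0.37 in AKO samples. Both had control 2 as the highest sample and no overlap between groups. The distance between them was 0.0504, the smallest among the regulators, and 0.217% of the 13803 genes compared (30 genes, Esrra included) lay as near to the score. Gabpa followed at 0.163 (9.72% of genes as near) and Pparg at 0.216. Ppara stood at 0.258 and Ppargc1a at 0.280, which is the distance of the median gene (0.281).

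Esrra remained the nearest regulator to the score with the other pseudocounts, with TMM factors and without any single sample. It was also nearest to the fatty acid oxidation, TCA cycle and oxidative phosphorylation genes taken separately (distances 0.0695, 0.0779 and 0.105). The fatty acid oxidation and TCA cycle lists make up the score, so that only the oxidative phosphorylation list lies outside it. The match was in size and not in each order within a group, since the AKO samples were ordered 1, 2, 3 by Esrra and 2, 3, 1 by the score. The difference between Esrra and the score moved by 0.00 between groups (SD 0.04 in control and 0.08 in AKO, n = 3, exact permutation test, p = 1). That of Ppargc1a moved by 0.06 (SD 0.45 and 0.16, p = 0.9 in the exact permutation test), with far wider spread between samples. For 1 of 10 regulators, Nrf1, the difference from the score did not overlap between groups, at 0.49 higher in AKO (exact permutation test, p = 0.1, adjusted p = 0.571). Over the 13803 tested genes outside the score, 52.7% were higher against it without overlap in this way. With 2 groups of 3 samples, no correlation across samples was computed.

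**Figure D4:**
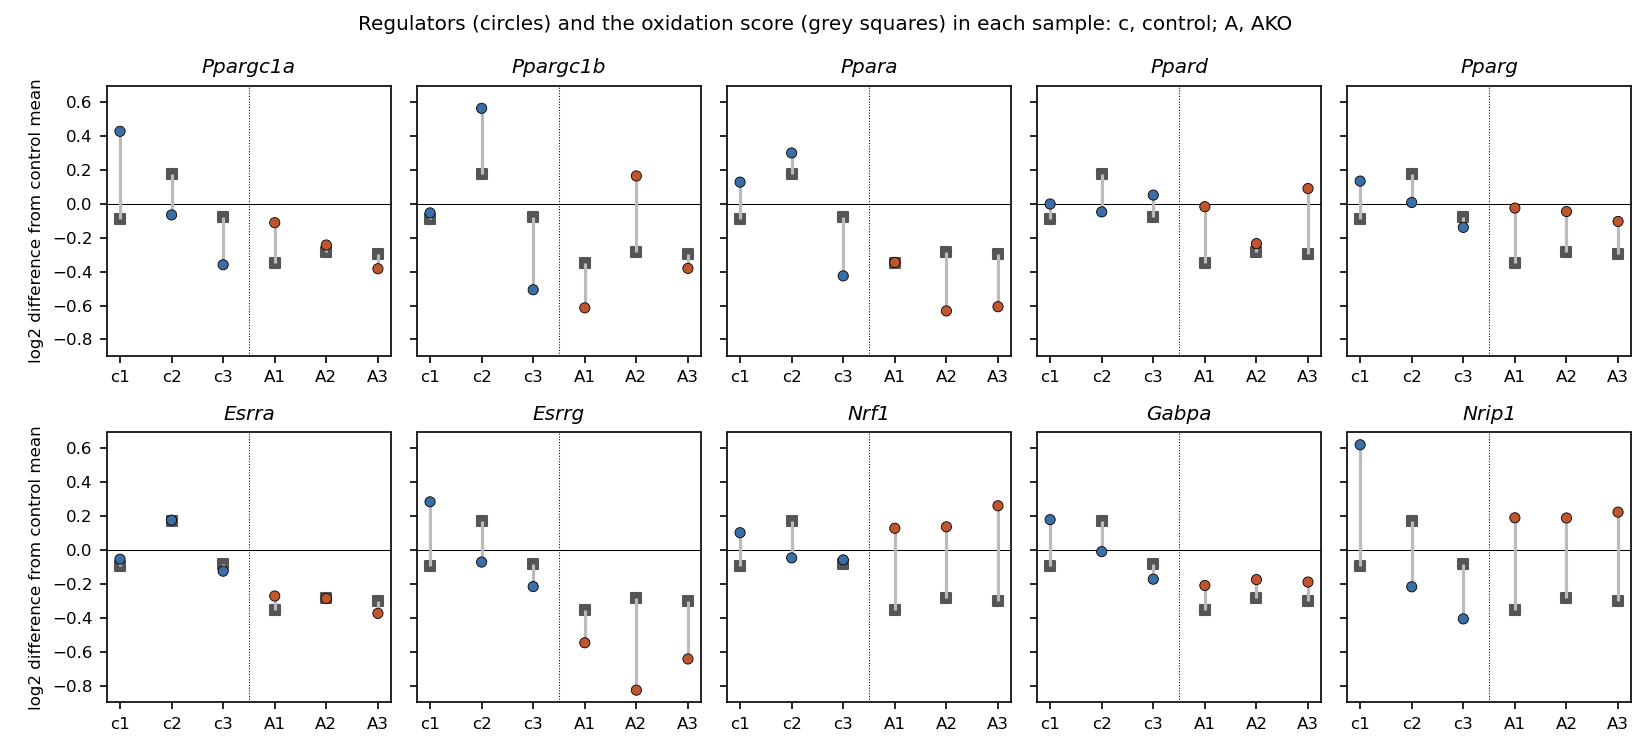
Log2 difference from the control mean (vertical axis) in control samples c1 to c3 and AKO samples A1 to A3, for each regulator (circles) and the oxidation score (grey squares), joined by grey lines. The lines are shortest for Esrra, whose distance from the score is 0.0504, and longest for Nrip1 (0.509).

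Among 9 tested nuclear receptor partners, the median log2 fold change was 0.00, beside 0.01 for all genes, and 0 were called by limma or by DESeq2. Rxrb and Rxrg, genes of RXR receptors that pair with the PPARs, were lower without overlap, from 1002 ± 93.1 to 853 ± 49.8 and from 459 ± 22.5 to 373 ± 42.9 normalized counts (SD, n = 3), with limma adjusted p-values of 0.508 and 0.472. Rxra, the most highly expressed RXR gene, had 5130 ± 74.4 and 5192 ± 395 (SD, n = 3). Nr1d1, a receptor of the circadian clock, and Nr1h3, the liver X receptor α gene, had log2 fold changes of -0.09 and -0.13 with overlapping groups.

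Of 22 other coactivators and corepressors, 10 were below 0 and 12 above it, with a median of 0.01. The exception in size was Perm1, which encodes a muscle-enriched regulator that is induced by PGC-1 and ERR and enhances their targets. Perm1 had 166, 252 and 174 normalized counts in control and 70.1, 109 and 106 in AKO samples. The log2 fold change was -1.04 (SE 0.22, limma adjusted p = 0.289), and DESeq2 called it with an adjusted p of 0.00467. All 3 AKO samples were below all controls. The summed muscle markers overlapped between groups, at 893 to 35254 in control and 26262 to 148939 in AKO samples. The part of muscle RNA in the values of Perm1 was not tested. The most highly expressed genes of the list, Lpin1 (a PGC-1α partner and phosphatidate phosphatase), Hdac3 and Ncor1 (a deacetylase and its corepressor), had log2 fold changes of 0.08, -0.07 and -0.07.

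The 17 mitochondrial biogenesis factors, a mixed list of genes for mitochondrial DNA maintenance and transcription, protein import, heme synthesis and nuclear transcription factors, had a median log2 fold change of -0.11. This median was -0.06 without AKO 3 and -0.05 when scaled by total reads. None of the 17 had an unadjusted p under 0.05 and none was called by limma or DESeq2, although 13 of 17 were below 0, beside 48.1% of all genes. Alas1, of heme synthesis, had 7093 ± 563 and 6022 ± 1191 normalized counts (SD, n = 3). Nfe2l2, of the oxidative stress response, had a log2 fold change of 0.15, and Tomm70a, of protein import, -0.08. Of 15 such genes with a promoter window, 8 (53.3%) held the GABPA element, beside 9.93% of all genes.

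The 3 most highly expressed PPAR target genes, Fabp4, Cidec and Adipoq, products of mature adipocytes, had log2 fold changes of -0.17, -0.16 and -0.10 with overlapping groups. Of 32 target genes, 28 were below 0 and 14 did not overlap between groups, all lower in AKO, with a median of -0.19. Over all genes tested 48.1% were below 0 and 8.31% lower without overlap. limma called 0, and DESeq2 called 8, all lower, beside 0.629% of all genes. Fabp3, a fatty acid carrier of oxidative tissues, went from 519 ± 75.3 to 132 ± 64.7 normalized counts (SD, n = 3, log2 fold change -2.10). Gyk, glycerol kinase, went from 1314 ± 210.3 to 519 ± 78.0 (log2 fold change -1.34), and Pdk4, which blocks pyruvate entry into the TCA cycle, from 6380 ± 2060.0 to 2871 ± 247 (log2 fold change -1.11). Cidea and Plin5, lipid droplet proteins of brown and oxidative cells, had log2 fold changes of -0.82 and -0.65.

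The genes of the oxidation lists were mostly lower in AKO samples. Of 27 fatty acid oxidation genes, 22 did not overlap between groups, all lower (81.5%, beside 8.31% of all genes), with a median of -0.37, and DESeq2 called 15 as lower. Of 25 TCA cycle genes, 15 were lower without overlap (median -0.24, 7 called by DESeq2), and of 36 oxidative phosphorylation genes 18 were (median -0.24, 4 called). limma called none in these 3 lists. Acadl, a fatty acyl-CoA dehydrogenase, had 15004 ± 1611 and 10834 ± 259 normalized counts (SD, n = 3), and the carnitine carrier Slc25a20 had 4300.0 ± 573 and 2771 ± 93.5 (SD, n = 3). Sucla2, a succinyl-CoA synthetase subunit, had 6087 ± 909 and 4241 ± 49.7 (SD, n = 3), while Pcx, pyruvate carboxylase, had a log2 fold change of 0.09. Cox8b, a cytochrome oxidase subunit of brown fat and muscle, had a log2 fold change of -0.62. The summed adipocyte markers were also lower in AKO samples. The 8 progenitor and fibroblast markers and the 12 macrophage markers each had a log2 fold change above 0. The part of these cell types in the differences was not tested. With the muscle covariate the medians of the 3 lists were -0.40, -0.34 and -0.40. Without control 2 the oxidative phosphorylation median was -0.13.

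**Figure D5:**
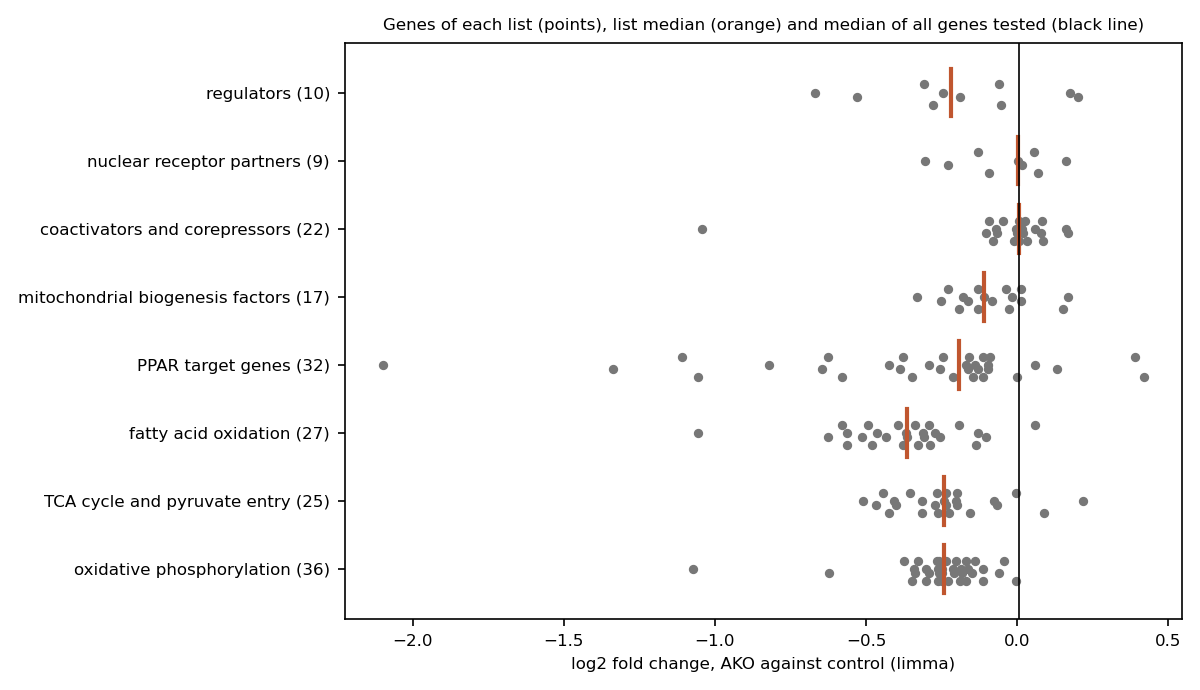
Log2 fold change of AKO against control (horizontal axis, limma, n = 3 samples per group) for each tested gene (points) of 8 lists, with the number tested in brackets, list medians in orange and the median of all genes as a black line. Medians run from -0.37 (fatty acid oxidation) to 0.01 (coactivators and corepressors), and the regulators lie at -0.22.

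The genes whose profile over the 6 samples lay nearest to Esrrg, the regulator with the largest difference, were Slc4a4 (distance 0.105), Tbx18 (0.139), Tmeff1 (0.145), Cntfr (0.149) and Plod2 (0.165), among 10303 genes whose mean was 100 normalized counts or more. Slc4a4, a sodium bicarbonate cotransporter gene, had 1086 normalized counts on average in control and 674 in AKO samples, a log2 fold change of -0.67 (SE 0.14, limma adjusted p = 0.293). The other 4 had log2 fold changes from -0.61 to -0.50, and limma called none of the 5.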

How the data were processed

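The authors aligned reads with STAR to GRCm38.p6 (mm10 by the labels), counted them with featureCounts and deposited a signal per gene, which is its count scaled by the size factor of DESeq2. Whether counting used strand was not given in the sources used here. The 3 deposited columns of fold changes and p-values were not used. Dividing by what 1 read is worth gave whole numbers (100% of values, tolerance 0.001), so whole reads were recovered for the count tests.

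Samples were grouped by their labels. limma 3.58.1 (R 4.3.3) was fitted with a variance trend to log2(value + 1) of 13855 genes with a mean of at least 10, with Benjamini-Hochberg adjustment. edgeR 4.0.16, DESeq2 1.42.0 and limma-voom were run on the recovered reads, and single values were compared by 2-sided exact permutation tests, whose smallest p is 0.1. The regulators and gene lists were chosen with earlier results of these data known. Genes named were the regulators, Ucp1, the 3 genes of each list with most counts per kilobase, up to 5 per list called by DESeq2 and the 5 nearest to Esrrg, of which some are described. Others, such as Rxrb, Rxrg, Acta1, Pdgfra and Dpp4, were named after their values were seen. Symbols were matched to GENCODE M21 (96.1%) for positions and exon lengths. Alternatives were pseudocounts, filters, normalizations, a muscle score as covariate and samples left out.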

Additional observations from a re-analysis of the deposited data

How the results depend on the processing

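The count of regulators called was 0 with edgeR, DESeq2 at its default, limma-voom, the replicate block, the muscle covariate and the other pseudocounts, filters and scalings run. It was 1 with DESeq2 filtering set for 0.05 and 0 to 1 with DESeq2 and each sample left out, both chosen after the data were seen. The count of all genes called, 2 with limma, was 136 with DESeq2, 149 with its filtering set for 0.05, 179 with DESeq2 and the muscle covariate, 11 with robust shrinkage, 4 with a mean of at least 50, 0 with the limma muscle covariate, 0 to 3 with samples left out of limma and 79 to 164 with samples left out of DESeq2. edgeR called 3. Log2 fold changes turned sign for Ppargc1a with the muscle covariate (0.0658 in limma, 0.0528 in DESeq2), for Pparg with the same (0.0327 and 0.0297) and for Ppard when scaled by total reads (0.00417). With each sample left out, Ppargc1b ranged from -0.563 to 0.025, Ppard from -0.127 to 0.0357, Pparg from -0.129 to 0.00746 and Nrip1 from -0.0595 to 0.512. The median of the nuclear receptor partners then ranged from -0.122 to 0.0411 (and was -0.00297 with DESeq2) and that of the coactivators and corepressors from -0.0371 to 0.0472. The group difference of a regulator minus the oxidation score ranged from -0.0759 to 0.323 for Ppargc1a, from -0.18 to 0.228 for Ppargc1b and from -0.0376 to 0.039 for Esrra, which was at -0.00185 with a pseudocount of 10.

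Same-numbered samples did not deviate together (correlations 0.135, -0.351 and 0.24), so the replicate numbers are only names. With the replicate block, limma called 2 genes, 0 lower and 2 higher in place of 1 lower and 1 higher, and 0 regulators. In this balanced design a block cannot move a group difference. The median of the regulators, -0.218, was -0.0648 with the muscle covariate (-0.0641 in DESeq2) and -0.323 to -0.0778 with samples left out of limma. Genes with few reads, such as Esrrg, carry the largest relative counting error.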
